A study of Mus musculus with 2 samples.

Results

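The interferon response genes described here are 33 genes chosen by name from the 31053 genes listed in both count matrices. They are 4 transcription factors (Irf7, Irf1, Irf9, Stat2), 3 Ifit genes (Ifit1, Ifit2, Ifit3) and 4 PYHIN family genes (Ifi203, Ifi204, Ifi206, Ifi209). They also include 3 oligoadenylate synthetase genes (Oas1a, Oas3, Oasl2), 5 GTPase genes (Mx1, Gbp2, Igtp, Irgm1, Ifi47), and Isg15 with its protease Usp18. A further 12 effectors (Isg20, Ifi27, Rtp4, Bst2, Zbp1, Ifi44, Cmpk2, Rsad2, Xaf1, Trim30a, Eif2ak2, Ifitm3) complete the set. All 33 symbols were present in both matrices, and the rule uses names alone.

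The data are single-cell transcriptomes of mouse bone marrow from a study on how loss of LCR1 affects the formation of group 2 innate lymphoid cells, or ILC2. One library came from wild-type C57BL/6 mice (LCR1+/+, called WT here) and 1 from C57BL/6 mice lacking LCR1 (LCR1-/-, called KO here), all 8 to 12 weeks old, untreated as far as the labels say. Within each genotype males and females were pooled in equal number, and live cells with CD45 and CD127 on the surface and no lineage markers were taken by sorting. The sources used here do not give what LCR1 is or where it lies in the genome. Each genotype is a single pool of animals, so genotype, pool and library cannot be told apart.

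Interferons are secreted proteins that cells release on sensing viruses or other danger. Type I interferons bind the receptor made of Ifnar1 and Ifnar2, and the kinases Jak1 and Tyk2 then lead to a complex that holds Stat2 and Irf9 and binds the interferon-stimulated response element (ISRE). Interferon gamma instead acts through Ifngr1 and Ifngr2 on the gamma-activated site (GAS). In uninfected animals a low level of this signalling, often called interferon tone, keeps many of the target genes transcribed at a low level, and bone marrow progenitors are known to respond to it.

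Of the 33 genes, 27 had a promoter in the RefSeq table for GRCm38.p6, in 34 windows running from 250 bases before to 50 bases after an annotated start. The windows were searched for a form of the ISRE, which is GAAA, any 2 bases and GAAA again, and TTCNNNGAA, a form of the GAS, on both strands, and matches were allowed to overlap. TTCNNNGAA is its own reverse complement. The ISRE form was found in 16 of the 27 genes (59.3%) and in 1079 of the 27025 genes in the table (3.99%), while the GAS form was found in 8 of 27 (29.6%) and in 2582 of 27025 (9.55%). A match is only a string of letters, and binding was not measured here. The stretches from 200 to 51 bases before the start are printed 5′ to 3′ for 5 genes whose levels recur in the results, with the matches in capitals. Isg15, on the minus strand at chr4:156200869-156201018, carried 3 overlapping ISRE matches starting 78, 72 and 66 bases before the start. Ifit1 (plus strand, chr19:34640689-34640838) and Ifit3 (plus strand, chr19:34583329-34583478) carried 2 each. Bst2 (minus strand, chr8:71537523-71537672) carried 2 ISRE matches, the first of which overlapped a GAS match. Irf1 (plus strand, chr11:53769814-53769963) carried 1 GAS match and no ISRE match. The window of Irf7 held neither.
Isg15: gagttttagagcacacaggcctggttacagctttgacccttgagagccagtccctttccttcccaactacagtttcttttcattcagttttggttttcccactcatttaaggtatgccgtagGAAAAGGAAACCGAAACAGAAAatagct
Ifit1: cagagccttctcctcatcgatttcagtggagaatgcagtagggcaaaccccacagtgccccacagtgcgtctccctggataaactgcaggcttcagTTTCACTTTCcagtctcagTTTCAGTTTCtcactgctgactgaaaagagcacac
Ifit3: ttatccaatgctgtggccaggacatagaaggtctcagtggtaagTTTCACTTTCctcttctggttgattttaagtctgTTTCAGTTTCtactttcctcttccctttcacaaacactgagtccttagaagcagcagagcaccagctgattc
Bst2: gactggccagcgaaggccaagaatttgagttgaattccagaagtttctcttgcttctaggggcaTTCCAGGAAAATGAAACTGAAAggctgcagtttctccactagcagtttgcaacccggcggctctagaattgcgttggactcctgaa
Irf1: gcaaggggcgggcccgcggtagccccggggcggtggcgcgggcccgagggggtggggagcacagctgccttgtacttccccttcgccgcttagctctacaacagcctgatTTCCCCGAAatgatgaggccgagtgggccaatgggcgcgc

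The 33 genes lie on 15 chromosomes, and several lie close together, among them the PYHIN and the Ifit genes. Rsad2 (end 26456452, minus strand) and Cmpk2 (start 26469204, plus strand) also lie close together, on chromosome 12. On chromosome 1 the 4 PYHIN genes stretch from Ifi206 (start 173468485, minus strand) to Ifi203 (end 173942672, minus strand). On chromosome 19 the Ifit genes stretch from Ifit2 (start 34550694) through Ifit3 to Ifit1 (end 34650009), all on the plus strand. In 4 cases a listed gene overlaps a member on the same strand, namely Rnf31 with Irf9, Mndal with Ifi203, Irgm2 with Igtp, and Olfr56 with Ifi47. Counts of these members, and of close paralogs such as the Ifit and PYHIN genes, are therefore less certain.

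The barcodes used had 1000 genes or more and no more than 10% of their unique molecular identifiers (UMIs) from mitochondrial genes, which left 3290 of 20293 WT and 4343 of 8476 KO barcodes. They held 29168870 and 42601457 UMIs, with medians of 5371.5 and 7261 per cell. Cells were assigned to the class whose markers they carried, when at least 3 markers had a UMI and at least 2 more than for any other class. The 7 classes compared, with WT and KO cells, were ILC2-like (795 and 619), ILC precursor-like (85 and 282), NK or ILC1-like (154 and 530) and common lymphoid progenitor-like (315 and 562). The others were early B-like (61 and 61), plasmacytoid dendritic cell-like (160 and 116), and a class gated on basophil, mast cell or eosinophil markers (285 and 184), called the basophil class here. No member is a marker, and between 5 of 6 and 11 of 11 markers of each class were at least 2-fold higher inside it than in the other kept cells, which the gate itself favours. Cells at the edge of the gate, with exactly 3 markers or exactly 2 more than for another class, ranged from 9 of 184 in the KO basophil class to 352 of 562 in the KO progenitor class. The gate left 1381 WT (42.0%) and 1773 KO (40.8%) cells without a class. Il7r, which encodes CD127, and Ptprc, which encodes CD45, were detected in every class, with the lowest Il7r level in the basophil class, at 238 and 153 counts per 1000000 UMIs (CPM). In all 75 barcodes occurred in both libraries, of which 15 WT and 28 KO barcodes were kept. Scrublet called 0 WT and 48 KO doublets, and no cell was removed in the main results. Id2, a factor needed by ILC2, was lower in the KO library in every class, for example in ILC2-like cells, with 982 CPM (WT) and 246 CPM (KO).

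Levels below divide the UMIs of a gene by those of all genes in the class and are scaled to CPM. With 1 library a genotype there is no replicate and no test, so intervals are exact, at 95%, and cover counting error only. UMIs here count transcript 3′ ends with no scaling per length, so levels are compared between classes and libraries, not between genes.

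Interferon response genes had UMIs in every class, and plasmacytoid dendritic cell-like cells stood highest. Their 33 genes summed to 2258 CPM in WT (2191 to 2327) and 1798 CPM in KO (1726 to 1871). Bst2, which encodes the surface protein tetherin that holds budding virus on the cell, made up 1220 CPM of this in WT (1170 to 1271) and 963 in KO (911 to 1017). Without Bst2 these cells came to 1038 and 835 CPM and were no longer the highest class. Of the compared classes, NK or ILC1-like cells (1488 in WT, 1267 in KO) and progenitor-like cells (1257 and 1343) followed in both libraries, in opposite order. The basophil class was the lowest in both, at 673 and 501 CPM, next to ILC precursor-like cells at 703 and 725, whose intervals overlap those of the basophil class in WT and not in KO. Left out of this order are 179 KO cells gated as ILC3, since WT had only 10. They summed to 1604 CPM (1531 to 1681), and to 1303 CPM without Bst2.

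**Figure D1:**
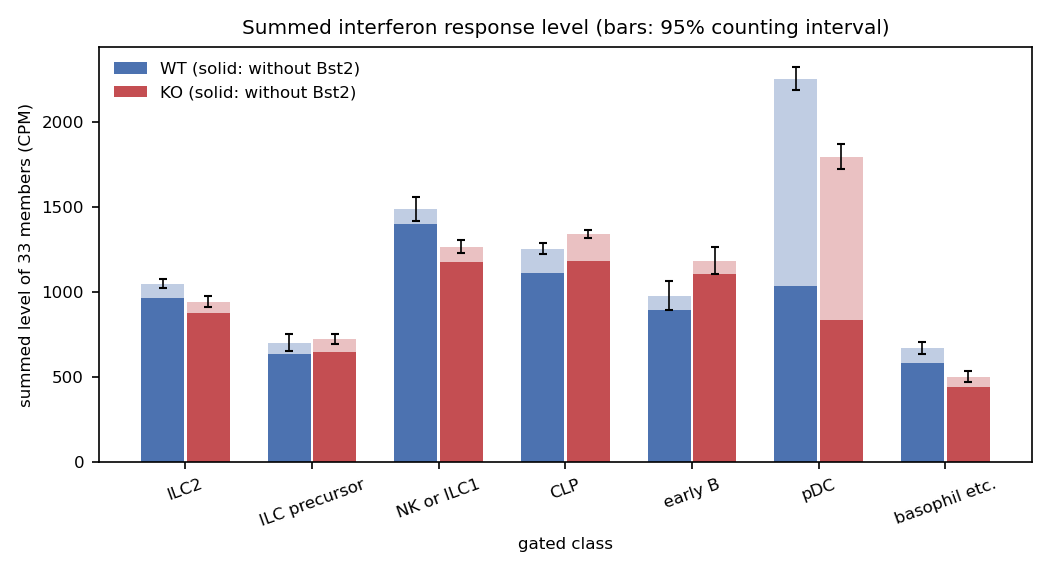
Summed level of the 33 interferon response genes (CPM, vertical axis from 0) in each class, with WT in blue and KO in red, the part owed to Bst2 in the paler shade and exact 95% Poisson intervals of the sum. CLP stands for progenitor-like, pDC for plasmacytoid dendritic cell-like and basophil etc. for the basophil class. pDC bars are highest in both libraries (2258 and 1798 CPM) through their Bst2 part, and the basophil bars lowest (673 and 501 CPM).

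Which class led differed from gene to gene, and 24 of the 33 genes had the same highest class in both libraries. For 5 of these the interval of the leading class lay apart from that of the next class in both libraries, namely Bst2, Stat2 and Trim30a in plasmacytoid dendritic cell-like cells, Ifitm3 in progenitor-like cells and Ifi47 in NK or ILC1-like cells. Bst2 was 8.41-fold above the next compared class in WT and 6.09-fold in KO. With cells thinned to 2000 UMIs each, 82.4% of WT and 81.9% of KO plasmacytoid dendritic cell-like cells had a Bst2 UMI, against 4.44% to 25.6% of cells in the other 6 classes. Without thinning the shares were 95.6% and 98.3%, against 23.1% to 78.1%. No class here is known to lack Bst2, so these lower shares are not a measured background.

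**Figure D2:**
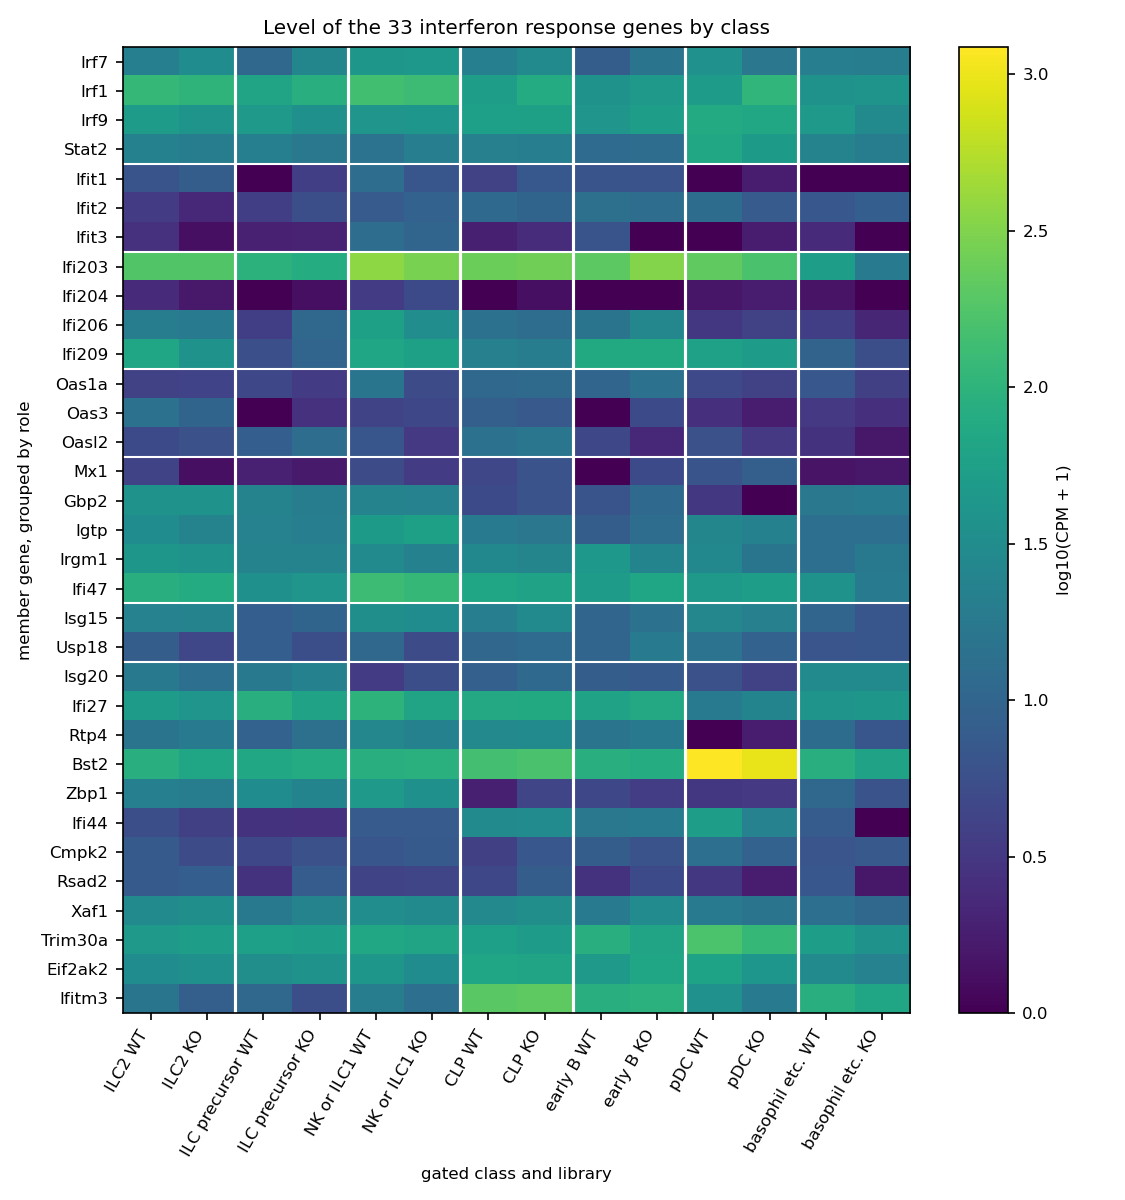
Level of each of the 33 genes (rows, by role) in each class and library (columns), with colour giving log10 of CPM plus 1. Along its row, Bst2 is brightest in plasmacytoid dendritic cell-like cells (pDC) and Ifitm3 in progenitor-like cells (CLP), and Ifi203 is darkest in the basophil class, in both libraries.

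Among the transcription factors, Stat2, a subunit of the ISRE-binding complex, was at 69.5 CPM in WT and 47.3 in KO plasmacytoid dendritic cell-like cells, and at 10.8 to 22.8 CPM in the other classes. Irf9, the DNA-binding subunit of that complex, was more even, from 28.9 to 76.9 CPM over classes and libraries, and led in the same cells. Irf1, induced by interferon gamma and by many other stimuli, was highest in NK or ILC1-like cells (139 CPM in WT and 129 in KO) and next in WT in ILC2-like cells, at 114 CPM. Irf7, which amplifies type I interferon production, was also highest in NK or ILC1-like cells, at 42.1 and 42.8 CPM. Its interval there overlapped that of the next class in both libraries.

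The PYHIN family, known for sensors of DNA in the nucleus and cytosol, includes Ifi203, which was at 362 CPM in WT (329 to 398) and 294 in KO (277 to 313) NK or ILC1-like cells. Progenitor-like cells held Ifi203 at 246 and 262 CPM, whereas the basophil class held it at 51.0 and 17.0 CPM. Ifi206 was at 56.1 and 31.6 CPM in NK or ILC1-like cells and at 1.14 to 3.00 CPM in the basophil and plasmacytoid dendritic cell-like classes. Ifi209 was highest in early B-like cells, at 74.0 and 74.1 CPM. Ifi204 did not exceed 3.95 CPM in any compared class.

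The GTPases act on vacuoles and viruses inside the cell, and 3 of them had a distinct class order. Ifi47 was at 129 CPM in WT (109 to 150) and 113 in KO (102 to 124) NK or ILC1-like cells. Igtp led in the same class, at 47.0 and 55.2 CPM, with an interval apart from the next class only in KO. Gbp2, a guanylate-binding protein, was highest in ILC2-like cells at 37.1 CPM in WT (32.0 to 42.8) and 37.2 in KO (30.8 to 44.6). In plasmacytoid dendritic cell-like cells Gbp2 was at 2.14 CPM in WT and had no UMI in KO, where 3 UMIs would have been 2.25 CPM. Irgm1 spread from 12.3 to 43.3 CPM, and Mx1 stayed at or below 7.51 CPM.

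Ifitm3, a membrane protein that hinders virus entry, was at 199 CPM in WT (187 to 213) and 210 in KO (200.5 to 219) progenitor-like cells, 2.25-fold and 2.27-fold above the next class. It was at 10.2 and 4.48 CPM in ILC precursor-like cells. Trim30a, a regulator of inflammatory signalling, was at 162 and 112 CPM in plasmacytoid dendritic cell-like cells. Zbp1, a sensor of left-handed nucleic acid, was at 44.5 and 34.4 CPM in NK or ILC1-like cells and at 0.870 and 3.45 CPM in progenitor-like cells. Rtp4 had no UMI in WT plasmacytoid dendritic cell-like cells, where 3 UMIs would have been 1.60 CPM, against 27.4 CPM in WT progenitor-like cells. Ifi27 was likewise lowest in plasmacytoid dendritic cell-like cells, at 17.6 and 24.0 CPM. Isg20, a nuclease, led in the basophil class at 28.7 and 27.8 CPM, and Eif2ak2, the kinase that halts translation on double-stranded RNA, spread from 22.1 to 66.3 CPM, lowest in that class. Xaf1, a promoter of cell death, ranged from 9.65 to 33.7 CPM.

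The 3 Ifit genes, often taken as signs of an acute interferon response, did not exceed 12.6 CPM in any class. Over the compared classes Ifit1 ranged from 0 to 11.5 CPM. Ifit2, like Ifit1 a binder of viral RNA, ranged from 1.28 to 12.6, and Ifit3, its partner, from 0 to 11.5. Isg15, a ubiquitin-like protein, was at 33.8 and 30.4 CPM in NK or ILC1-like cells and at 5.68 to 9.10 CPM in ILC precursor-like cells and the basophil class. Usp18, which removes Isg15 from proteins, stayed between 3.53 and 18.2 CPM. Rsad2, which encodes the antiviral enzyme viperin, Cmpk2, a mitochondrial nucleotide kinase, Oas1a and Oas3, which make the signal that activates RNase L, and Oasl2 each stayed at or below 15.2 CPM.

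Interferon transcripts themselves were nearly absent. Of 21 listed ligand genes, none had a UMI in plasmacytoid dendritic cell-like or early B-like cells of either library, and 1 had enough UMIs to be compared. That gene was Ifng, which encodes interferon gamma, in NK or ILC1-like cells, at 30.5 CPM in WT and 72.4 in KO, a 2.37-fold higher level in KO (1.68 to 3.45). Of the receptor genes, Ifngr1 was at 961 and 920 CPM in NK or ILC1-like cells, at 249 and 400 CPM in ILC2-like cells (1.60-fold higher in KO, 1.48 to 1.74) and at 164 and 466 CPM in ILC precursor-like cells (2.85-fold, 2.43 to 3.35).

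Comparison of KO with WT within classes asked whether the tone differed between the libraries. The summed level was 0.900 of the WT level in KO ILC2-like cells (0.860 to 0.941), 1.03 in ILC precursor-like cells (0.949 to 1.12) and 0.852 in NK or ILC1-like cells (0.806 to 0.900). It was 1.07 in progenitor-like cells (1.03 to 1.10), 1.21 in early B-like cells (1.09 to 1.35), 0.796 in plasmacytoid dendritic cell-like cells (0.757 to 0.837) and 0.745 in the basophil class (0.685 to 0.811). The direction thus differed between classes, and no ratio reached 1.5-fold. Early B-like cells had median depths of 3584 UMIs in WT and 11904 in KO, and after thinning to 2000 UMIs a cell their ratio was 0.978. In NK or ILC1-like cells the ratio after thinning was 0.986, and in ILC2-like cells trimmed-mean scaling, which shifts all log2 ratios of that class by 0.12 and those of the other classes by no more than 0.06, gave 0.978.

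Single genes were called higher or lower when they differed at least 1.5-fold, with an interval that left out 1 and at least 30 UMIs over both libraries. In ILC2-like cells 1 of 28 measured members was higher and 2 were lower, beside 2.24% and 6.74% of all genes. The median log2 ratio of the members, with 5 CPM added to both levels, was -0.15, and that of all genes was -0.10. Irf7 was at 20.4 CPM in WT and 31.1 in KO, 1.52-fold higher (1.14 to 2.03). Ifi209 was at 66.2 and 37.5 CPM, a ratio of 0.567 (0.455 to 0.701), and Ifitm3 at 14.9 and 7.70 CPM, a ratio of 0.516 (0.311 to 0.825). Among barcodes outside the limits on genes and mitochondrial UMIs, Ifitm3 stood at 71.7 CPM in WT and 17.8 in KO, and the part of free RNA in its value was not tested. Summed granulocyte markers moved with these values, at 162 CPM in WT and 33.04 in KO ILC2-like cells, with 1 and 2 of the 9 genes at 0, and progenitor markers stood at 428 and 361 CPM. Their part in the results was not tested. In ILC precursor-like cells 2 of 21 measured members were higher and 0 lower (4.53% and 3.3% of all genes), with a median of 0.17 beside -0.01 for all genes. They were Irf7, at 10.2 and 24.8 CPM (2.44-fold, 1.28 to 5.10), and Ifi206, with 3 UMIs in WT and 29 in KO (ratio 3.60, 1.12 to 18.5). Progenitor markers stood at 213 CPM in WT and 351 in KO in this class, with none of the 6 genes at 0, and granulocyte markers at 37.0 and 10.3 CPM, with 2 and 3 of the 9 genes at 0. Their part in the results was not tested. The median of this class was -0.29 after thinning and -0.01 with a mitochondrial limit of 5%.

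**Figure D3:**
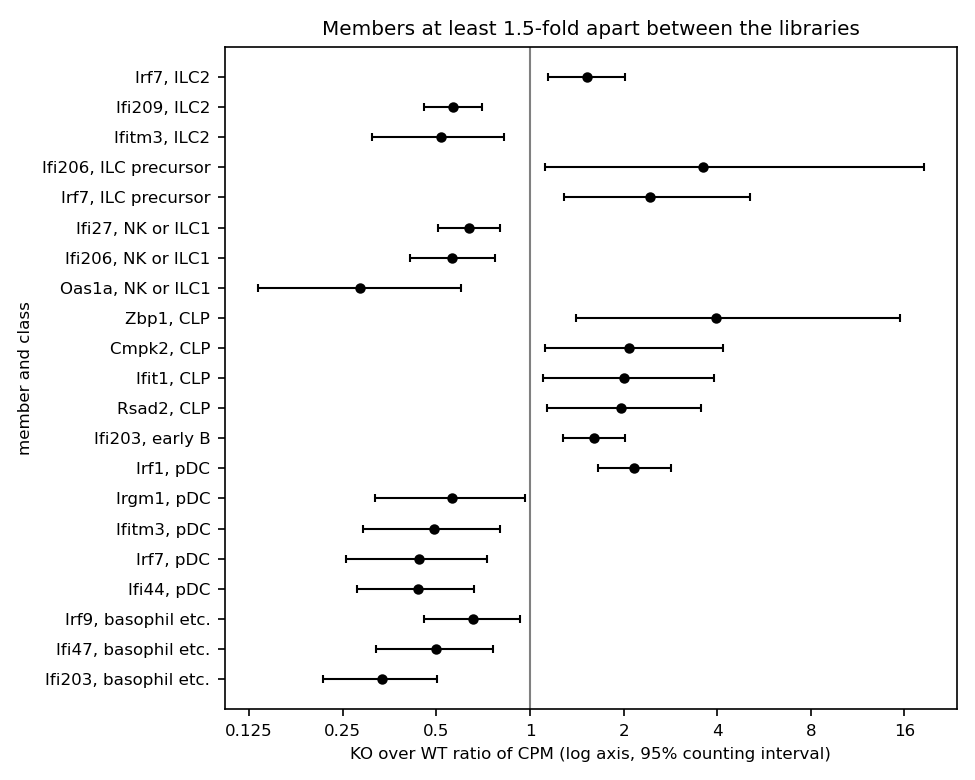
KO over WT ratio of CPM (log axis) with exact 95% counting intervals for the 21 cases in which a member was called in a class. All called cases in progenitor-like (CLP) and ILC precursor-like cells lie above 1, all in NK or ILC1-like cells and the basophil class below 1, and Irf1 alone among the plasmacytoid dendritic cell-like (pDC) cases above 1. Because only called cases are drawn, their distance from 1 is set by the rule.

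In NK or ILC1-like cells 0 of 26 members were higher and 3 lower (2.98% and 2.59% of all genes), with a median of -0.16 beside 0.00. Oas1a was at 14.8 and 4.23 CPM, a ratio of 0.285 (0.134 to 0.598). Ifi206 stood at 0.563 of the WT level (0.413 to 0.772), and Ifi27, a mitochondrial protein, at 98.2 and 62.6 CPM, a ratio of 0.637 (0.508 to 0.803). None of these 3 was called after thinning, which leaves fewer UMIs. Summed plasmacytoid dendritic cell markers stood at 232 CPM in WT and 127 in KO in this class, with 2 and 1 of the 8 genes at 0, and granulocyte markers at 47.8 and 24.8 CPM, with 2 of the 9 genes at 0 in each. Their part in the results was not tested.

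In progenitor-like cells 4 of 31 measured members were higher and 0 lower (2.46% and 2.99% of all genes), with a median of 0.07 beside -0.04. All 4 were rare transcripts. Ifit1 was at 3.04 and 6.12 CPM (2.01-fold, 1.10 to 3.91), Cmpk2 at 2.83 and 5.89 CPM (2.09-fold, 1.12 to 4.17) and Rsad2 at 3.70 and 7.23 CPM (1.96-fold, 1.13 to 3.56). Zbp1 rested on 4 UMIs in WT and 31 in KO (3.96-fold, 1.40 to 15.5). In early B-like cells 12 members were measured, of which 1 was higher and 0 lower (4.74% and 6.19% of all genes), with a median of 0.23 beside -0.05. The gene was Ifi203, at 204 and 328 CPM (1.60-fold, 1.28 to 2.02).

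Plasmacytoid dendritic cell-like cells held the most called members. There 1 of 20 was higher and 4 lower, beside 2.64% and 3.68% of all genes, with a median of -0.42 beside -0.03. Irf7 was at 35.8 CPM in WT and 15.8 in KO, a ratio of 0.441 (0.256 to 0.729). Ifi44 was at 51.8 and 22.5 CPM, a ratio of 0.435 (0.279 to 0.661). Ifitm3 stood at 0.490 of the WT level (0.291 to 0.798) and Irgm1, an immunity-related GTPase, at 0.562 (0.317 to 0.962). Irf1 went the other way, at 48.6 and 105 CPM, 2.16-fold higher (1.65 to 2.85). Bst2 had a ratio of 0.789 and was not called. In this class its own markers summed to 4148 and 3579 CPM and granulocyte markers to 41.7 and 16.5 CPM, and their part in the results was not tested.

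The basophil class had 0 of 19 measured members higher and 3 lower (2.41% and 4.52% of all genes), with a median of -0.31 beside -0.04. Ifi203 was at 51.0 and 17.0 CPM, a ratio of 0.334 (0.215 to 0.504). Ifi47 was at 36.4 and 18.2 CPM (0.499, 0.320 to 0.761) and Irf9 at 44.1 and 28.9 CPM (0.656, 0.458 to 0.930). Progenitor markers moved in the same direction in this class, from 501 CPM in WT to 241 in KO, and Ifi203 stood higher in progenitor-like cells, at 246 and 262 CPM. The part of such cells in the result was not tested. Each of the 21 calls was followed over up to 7 alternatives of cell choice, thinning and scaling, not of fold or UMI minimum. In all of these 3 calls were kept, and none changed direction. The 3 were Ifi209 in ILC2-like cells, Irf1 in plasmacytoid dendritic cell-like cells and Ifi203 in the basophil class. Ifi209, at a ratio of 0.567, is not called at a fold of 2. After thinning to 2000 UMIs a cell, which leaves fewer UMIs to count, 16 of 20 calls were lost.

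Beside the members, 20 immediate early and stress genes, such as Fos and Jun family genes that respond to handling among other stimuli, were measured in the same classes, and most were called higher in KO. The called counts ran from 11 of 19 in ILC2-like cells to 15 of 17 in the basophil class and 14 of 16 in early B-like cells, with none lower and class medians of 0.65 to 1.05 on the log2 scale. Irf1 is itself a gene of rapid induction, and the part of this list in its value was not tested. Socs3, a brake on cytokine receptors, was higher in KO in 4 classes, for example at 5.87 and 26.4 CPM in progenitor-like cells (4.49-fold, 3.01 to 6.96). Cxcl10, a chemokine induced by interferon gamma and other signals, was higher in KO in 5 classes, for example at 12.8 and 64.8 CPM in ILC2-like cells (5.07-fold, 3.82 to 6.82). It was at 0.534 and 0.751 CPM in plasmacytoid dendritic cell-like cells, with 1 UMI in each library.

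Of 65 further interferon-stimulated genes, 61 were in the matrices, and they showed mixed directions. In plasmacytoid dendritic cell-like cells 0 of 32 were higher in KO and 7 lower, in NK or ILC1-like cells 1 of 47 higher and 7 lower, and in the basophil class 1 of 30 higher and 6 lower. Ifi27l2a, an interferon-induced gene related to Ifi27, was at 445 and 258 CPM in plasmacytoid dendritic cell-like cells (ratio 0.580, 0.510 to 0.658). Ly6a, which encodes the stem cell antigen Sca-1, was at 86.6 and 45.8 CPM there (0.529, 0.388 to 0.715) and at 44.6 and 7.38 CPM in the basophil class (0.165, 0.0851 to 0.296). In ILC2-like cells 1 of 49 was higher and 4 lower, in ILC precursor-like cells 4 of 35 and 1, in progenitor-like cells 3 of 49 and 2, and in early B-like cells 1 of 22 and 0. The background shares are those given above for each class. Class I antigen presentation genes were called higher in KO in 3 of 15 measured cases in early B-like cells and in 1 of 16 in progenitor-like cells. They were called lower in 1 of 16 in plasmacytoid dendritic cell-like cells and 1 of 15 in the basophil class. None was called in ILC2-like, ILC precursor-like or NK or ILC1-like cells.

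The tone was then followed cell by cell. With each cell thinned to 2000 UMIs, which left out 239 shallower WT and 11 KO cells, the mean number of members with a UMI was 2.00 in WT and 1.98 in KO. Some 16.3% and 16.2% of the cells had none. At least 5 members were on in 224 of 3051 WT cells (7.34%, 6.44 to 8.33) and 302 of 4332 KO cells (6.97%, 6.23 to 7.77). The intervals overlap. Without thinning the shares were 47.3% and 56.5%. A thin tail reached 17 members in 2 WT cells and 18 in 1 KO cell, and at least 8 members were on in 35 WT (1.15%) and 40 KO cells (0.923%).

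**Figure D4:**
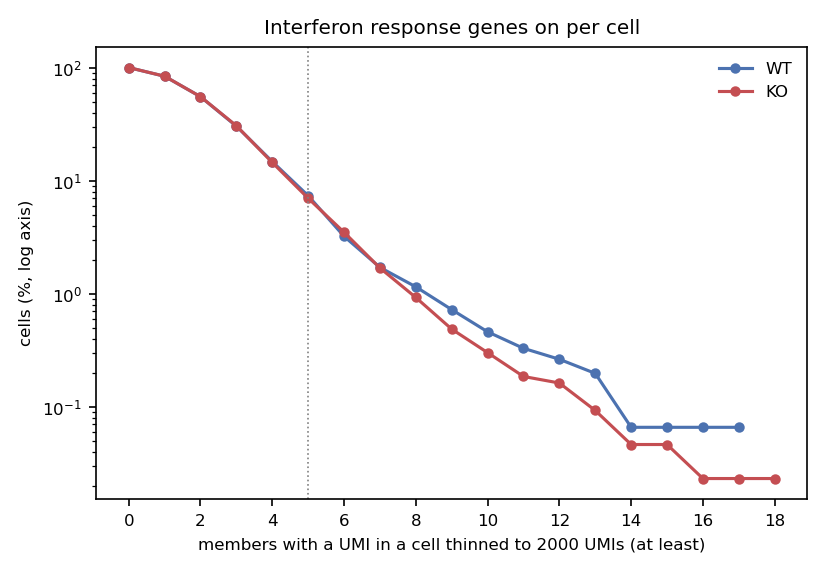
Share of cells (percent, log axis) in which at least a given number of the 33 genes had a UMI after thinning to 2000 UMIs, for WT and KO. The lines of the libraries lie close together up to 7 members, and reach 17 members in 2 WT cells and 18 in 1 KO cell. The dotted line marks 5 members.

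Cells with at least 5 members on occurred in every compared class. Among ILC2-like cells they made up 4.83% in WT (3.44 to 6.57) and 4.85% in KO (3.30 to 6.86), with up to 17 and 15 members on in a cell. They made up 10.6% and 9.61% of progenitor-like cells, 1.18% and 2.48% of ILC precursor-like cells, and 3.70% and 4.92% of early B-like cells. In NK or ILC1-like cells the share was 6.62% in WT (3.22 to 11.8) and 11.2% in KO (8.63 to 14.2). In plasmacytoid dendritic cell-like cells, most of which have Bst2 as 1 of the 5, it was 13.7% in WT (8.70 to 20.2) and 6.03% in KO (2.46 to 12.0). The basophil class had 1.98% and 0.556%, the lowest in KO. For each of the 7 classes the WT and KO intervals overlap. Cells with at least 5 members on were not deeper than the rest in a like manner in both libraries, with median depths before thinning of 6485.5 against 5779 UMIs in WT and 6840.5 against 7323 in KO. Of these cells 0 in WT and 2 in KO carried a barcode found in both libraries.

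Genes outside the set followed the cells with many members on. Of these cells, 110 of 224 in WT (49.1%) and 122 of 302 in KO (40.4%) had no class. Weighting by class does not match such cells by cell type. Against other cells weighted to the same class composition, Iigp1, an interferon-inducible GTPase, was 9.21-fold higher in WT and 11.8-fold in KO, the largest fold in both among genes with at least 20 UMIs there. Herc6, the ligase for Isg15, was 2.52-fold and 2.83-fold higher. Cxcl10 was 3.70-fold higher in WT, on 17 UMIs, and 4.00-fold in KO. Of the further interferon-stimulated genes, 25 of 30 measured in WT and 21 of 32 in KO were at least 1.5-fold higher, beside 5.58% and 5.202% of all measured genes. Measured genes, in the list and among all genes, had at least 20 UMIs in the cells with many members on. That minimum favours genes that are high in these cells and leaves out many of the 61 listed genes. The counts and the largest folds are thus partly set by it. The immediate early and stress list had 0 of 15 and 0 of 16 genes at that fold, and its median fold was 1.03 and 1.02.

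A split by Isg15 alone set the members apart from one another. Isg15 had a UMI in 113 of 3051 thinned WT cells (3.70%) and 190 of 4332 KO cells (4.39%), and in 10.7% and 14.1% of cells before thinning. In cells with an Isg15 UMI the other 32 members summed to 2372 CPM in WT, against 1205 in class-matched cells without one, 1.97-fold higher (1.80 to 2.14). In KO the sums were 2234 and 1182 CPM, 1.89-fold higher (1.77 to 2.02). These intervals, and those of single members below, cover counting error in the cells with an Isg15 UMI only. The level without one was taken as fixed, so they are too narrow, most of all for members rare without one. Class matching also does not fix the cell type of cells without a class. The interval so made lay above 1 for 22 members in WT, 24 in KO and 19 in both. At least 2-fold higher were 19 of 32 members in WT and 18 in KO, beside 0.737% and 0.692% of all measured genes. Measured genes numbered only 1763 in WT and 3033 in KO, whereas all 32 members were counted, however few their UMIs. The shares of members and of all genes are therefore not alike, and no conclusion is drawn from setting them side by side.

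Ifit3 had the largest fold in both libraries. It was at 44.2 CPM with an Isg15 UMI and 0.722 without in WT (61.3-fold, 29.4 to 113), and at 42.1 and 1.49 CPM in KO (28.2-fold, 16.1 to 45.8). Ifit1 was 11.5-fold higher in WT (6.42 to 18.9) and 13.2-fold in KO (8.29 to 20.0), and Rsad2 7.88-fold (3.40 to 15.5) and 8.12-fold (3.71 to 15.4). Ifi204 was 16.4-fold higher in WT (4.47 to 42.0), on 4 UMIs, and had a ratio of 2.81 in KO (0.579 to 8.21), on 3 UMIs. Ifit2 was 3.39-fold (1.25 to 7.39) and 3.90-fold (1.87 to 7.16) higher. Mx1, Oas3, Oasl2, Usp18, Rtp4, Zbp1 and Irf7 were each 2.73-fold to 9.37-fold higher in both libraries. Irf7 was at 84.1 against 25.9 CPM in WT and 108 against 33.05 in KO.

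For Irf1 and Ifi27 the interval of the fold included 1 in both libraries. Irf1 was 1.30-fold in WT (0.832 to 1.93) and 0.880-fold in KO (0.620 to 1.21), and Ifi27 1.25-fold (0.713 to 2.02) and 0.920-fold (0.590 to 1.37). Bst2 was 1.11-fold in WT (0.829 to 1.45) and 1.67-fold in KO (1.36 to 2.04). Cmpk2 was 6.46-fold higher in WT (2.95 to 12.3), but had no UMI in the 190 KO cells, where 3 UMIs would have been 7.89 CPM and cells without Isg15 stood at 4.83 CPM. Among members with a promoter, the median fold was 2.09 in WT and 1.84 in KO for the 15 with an ISRE match, and 2.11 and 2.17 for the 11 without.

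**Figure D5:**
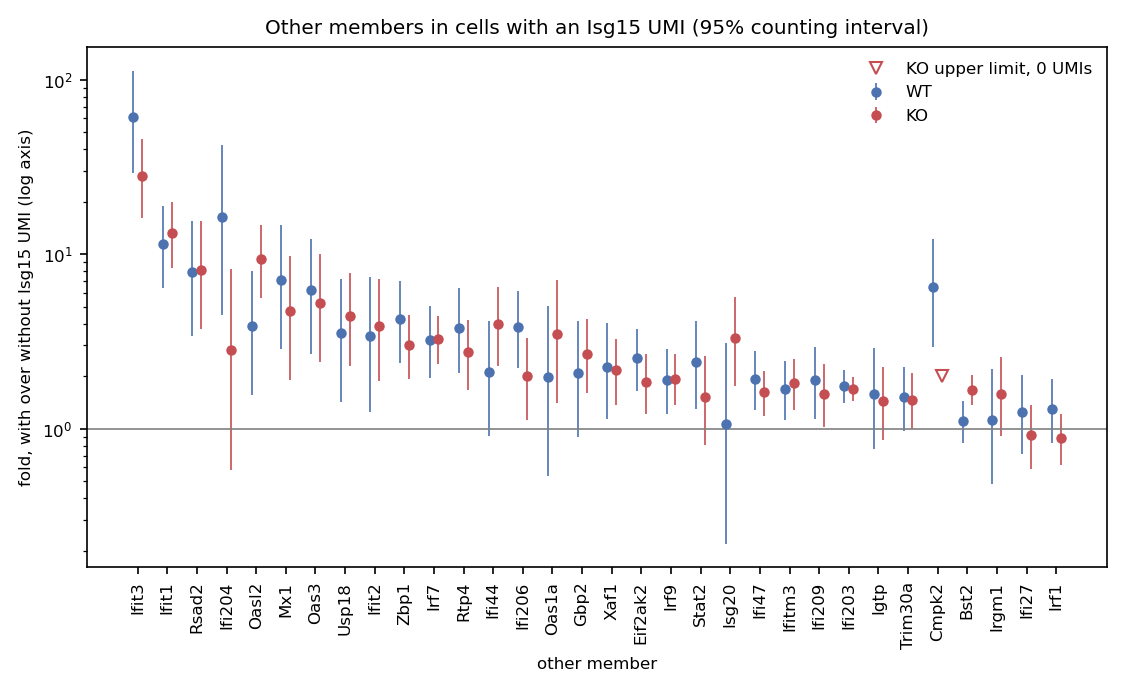
Fold of each of the other 32 members in thinned cells with an Isg15 UMI over class-matched cells without one (log axis), for WT and KO. The 95% intervals cover counting error in the cells with an Isg15 UMI only. An open triangle marks the upper limit of Cmpk2, which had 0 UMIs in KO. Ifit3 has the largest fold in both libraries (61.3 and 28.2), and the intervals of Irf1 and Ifi27 include 1 in both.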

How the data were processed

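UMI counts per gene and barcode, as deposited by the authors, were made with Cell Ranger (version 3.1.0 per the file headers; mm10 per the submitters' processing notes, which also name Seurat); no source used here names the gene annotation. The deposited barcode and gene lists of other type only name cells and genes. Barcodes with at least 1000 genes and at most 10% mitochondrial UMIs were summed per class (13 marker lists; the gate was set after the files were seen). Members and lists were chosen with earlier results of these data known.

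Levels are CPM, with exact Poisson, Clopper-Pearson and binomial ratio intervals (scipy 1.17.1) for counting error only. Intervals of the folds in the Isg15 split are Poisson intervals of the level with an Isg15 UMI, over a fixed level without one. By rule the text names all 33 members, gives called ones with both values, and adds at most 4 genes of each further list by log2 ratio. From the 10 largest folds outside the set in cells with many members on, only some genes are named. These and others were chosen after their values were seen. Scrublet (scanpy 1.11.5) found too few doublets, so the 8% of cells with the highest scores were left out only as an alternative, beside edgeR 4.0.16 scaling factors, gene and mitochondrial limits, thinning, fold, UMI minimum and pseudocount. Free RNA was not removed. A gene outside the 33 that the rule covers is not reported here.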

Additional observations from a re-analysis of the deposited data

Results flagged for a closer look

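For 3 members the KO over WT ratio was called in opposite directions in different classes. Irf7 was higher in KO in ILC2-like (1.52) and ILC precursor-like cells (2.44) and lower in plasmacytoid dendritic cell-like cells (0.441). Ifi203 was higher in KO in early B-like cells (1.60) and lower in the basophil class (0.334). Ifi206 was higher in KO in ILC precursor-like cells (3.60, on 3 WT UMIs) and lower in NK or ILC1-like cells (0.563). The differences between classes were not tested, since each genotype had 1 library.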

How the results depend on the processing

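No paired analysis was possible because each genotype had 1 library. The summed KO over WT ratio kept its direction in all classes and alternatives but one. In early B-like cells it was 0.978 with cells thinned to 2000 UMIs. The cause of the changes below was not tested, except that thinning, higher limits and left-out cells leave fewer UMIs by construction. With thinning the ratio was 0.986 in NK or ILC1-like cells, median log2 ratios were -0.042 (ILC2-like), -0.29 (ILC precursor-like) and -0.23 (plasmacytoid dendritic cell-like), members called lower numbered 1, 0 and 1 in ILC2-like, NK or ILC1-like and plasmacytoid dendritic cell-like cells, and those called higher 0 in ILC precursor-like, progenitor-like and early B-like cells.

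With at most 5% mitochondrial UMIs the summed ratios were 1.11 (progenitor-like), 1.38 (early B-like), 0.687 (plasmacytoid dendritic cell-like) and 0.837 (basophil class). Medians were -0.076 (ILC2-like), -0.011 (ILC precursor-like), 0.53 (early B-like), -0.56 (plasmacytoid dendritic cell-like) and -0.052 (basophil class). Members called higher numbered 0 in ILC2-like and ILC precursor-like and 2 in early B-like cells, and 1 was lower in ILC precursor-like cells. Summed levels were 1212 CPM in KO NK or ILC1-like, 1419.9 in KO progenitor-like, 843 in WT early B-like, 2329.8 in WT and 1601 in KO plasmacytoid dendritic cell-like cells, and 613 in the WT basophil class.

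With at least 500 genes a cell the basophil class had a WT level of 739.6 CPM, a ratio of 0.683, a median of -0.47 and 7 members lower, and ILC2-like cells had 0 higher. With TMM factors the ratios were 0.978 (ILC2-like) and 1.10 (progenitor-like), and the medians -0.038 and 0.12. Without the highest Scrublet scores KO levels were 1345 CPM (NK or ILC1-like) and 468 (basophil class), the NK or ILC1-like median was -0.073, and 1 member was higher in ILC precursor-like cells. A fold of 2 left 0 higher and 0 lower in ILC2-like cells, 1 lower in NK or ILC1-like cells and 0 higher in early B-like cells. A minimum of 50 UMIs left 1 higher in ILC precursor-like cells. With no minimum 5 were lower in the basophil class and the plasmacytoid dendritic cell-like median was -0.24, and with a pseudocount of 1 CPM that median was -0.49.

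Taken as the mean of cells, levels were 1576 CPM in WT and 1437 in KO NK or ILC1-like cells, 1311 and 1388 in progenitor-like cells, 1101 in WT early B-like cells, 1909.8 in KO plasmacytoid dendritic cell-like cells and 743 in the WT basophil class. Ratios were then 0.912 (NK or ILC1-like) and 0.668 (basophil class). Without Ifi203 the WT and KO levels were 876 and 771 CPM (ILC2-like), 609 and 644 (ILC precursor-like), 1126 and 973 (NK or ILC1-like), 1011 and 1081 (progenitor-like), 775 and 858 (early B-like), and 2041 and 1639.9 (plasmacytoid dendritic cell-like), with 622 in the WT basophil class.

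The share of cells with many members on was 14.7% in WT and 14.5% in KO for at least 4 members and 3.21% and 3.49% for at least 6. Thinned to 1500 UMIs it was 3.62% and 3.52%, and thinned to 3000 UMIs 15.6% and 15.3%.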

Other observations

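In the KO library 179 cells passed the gate for ILC3 markers, against 10 in WT, so the class was not compared. Its 33 genes summed to 1604 CPM in KO, with Bst2 at 301, Ifi203 at 350, Isg15 at 52.6 and Ifit1 at 24.5 CPM, and Isg15 had a UMI in 7.87% of the thinned cells.

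Barcodes outside the limits on genes and mitochondrial UMIs summed to 1118 CPM of members in 17003 WT barcodes and 855 CPM in 4133 KO barcodes. Bst2 was at 181 CPM in the WT and 44.1 CPM in the KO barcodes of this kind, Ifitm3 at 71.7 and 17.8 CPM, and Ifi203 at 216 and 215 CPM.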
